A study of Nicotiana benthamiana with 12 samples.

Results

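The multiprotein-bridging factor 1 (MBF1) genes of Nicotiana benthamiana were followed through a short heat treatment of leaves. They were chosen by their annotation, as all genes whose description names a multiprotein-bridging factor or an ethylene-responsive transcriptional coactivator. This gave 7 of the 40763 genes in the deposited table, 1 annotated as MBF1c (Niben101Scf01587g01006.1) and 6 as MBF1b, by homology to the Arabidopsis proteins. The 7 genes also carry the N-terminal MBF1 domain in the deposited annotation, and no other gene of the table does. All 7 had enough counts to be tested, among 34325 genes tested.

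MBF1 proteins are small transcriptional coactivators found from yeast to plants. In yeast and animals they bridge a DNA-bound activator, such as a bZIP factor, and the TATA-binding protein. In Arabidopsis, MBF1a and MBF1b form a group of mostly steady expression, while MBF1c is a heat-responsive gene needed for full thermotolerance, acting there through trehalose, ethylene and salicylic acid signalling. N. benthamiana, a relative of tobacco, is an allotetraploid, so many genes come as pairs of similar copies.

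The study asked how heat changes the abundance and the ribosome loading of leaf transcripts. All libraries came from leaves of 5-week-old N. benthamiana, grown in soil in long days, and kept at 23 °C (mock) or moved to 37 °C (heat) for 1 h. The labels name no mutant or transgene. Total RNA and polysome RNA, the RNA recovered with groups of ribosomes, were sequenced from each treatment. The 12 libraries form 4 groups of 3, described by the submitters as biological replicates, and carry the title numbers 5 to 7 (mock total, heat polysome) or 2 to 4 (heat total, mock polysome). The labels do not say how many plants each library pooled, and p-values measure the spread between these libraries.

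Total counts were 10724854 to 14485118 per library. Leaf markers were abundant, as 89 genes of the Rubisco small chain and chlorophyll a-b binding proteins summed to 117365 to 418985 CPM (counts scaled to a common library size) per library, against 6.33 to 14.0 CPM for 11 genes matched as floral or meristem regulators, 482 to 580 CPM for 31 genes of epidermis and cuticle, and 162 to 1376 CPM for 9 genes of vascular tissue. The vascular list ran from 162 to 275 CPM in mock total RNA from 306 to 321 CPM in heat total RNA, from 786 to 1376 CPM in mock polysome RNA and from 673 to 791 CPM in heat polysome RNA, and its part in the results below was not tested. Mock total libraries 6 and 7 stood apart, since 19 genes annotated as the plastid-encoded Rubisco large chain summed to 3228 and 4329 CPM there, to 169 CPM in mock total library 5 and to 42.6 to 49.7 CPM in heat total RNA. For MBF1 calls that ended without these libraries, and for pathway counts in total RNA, the values without them are also given. Values of single genes outside the family, and pathway counts for efficiency, were not recomputed without them. In total RNA fewer of all genes passed without them, while the shares of all genes given beside pathway counts are those of all 12 libraries.

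MBF1c had few reads in unheated leaves and was among the most strongly raised transcripts after heat. In mock total RNA its level was 0.571, 0.528 and 0.769 CPM, from 9, 9 and 12 reads in libraries 5, 6 and 7. In heat total RNA it was 858, 801 and 798 CPM in libraries 2, 3 and 4. In mock polysome RNA it was 4.28, 4.35 and 2.57 CPM, and in heat polysome RNA 7853, 5948 and 6177 CPM. The 4 groups did not overlap, and their order was mock total, mock polysome, heat total, heat polysome.

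**Figure D1:**
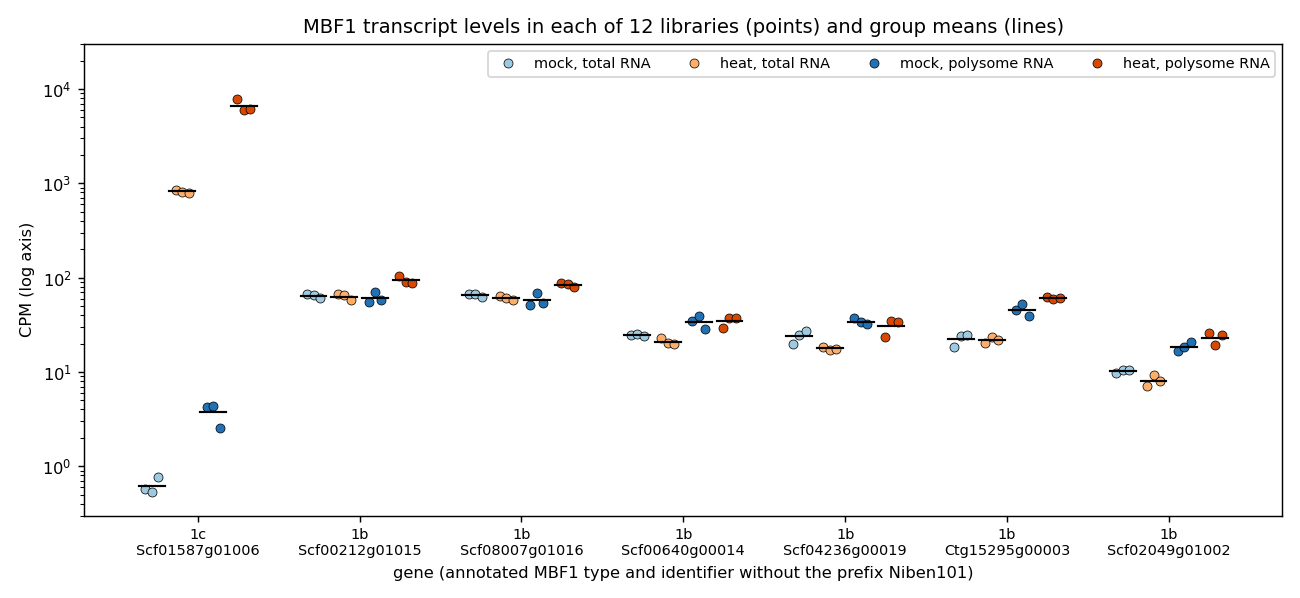
Level of each MBF1 gene in CPM (log axis) in 12 libraries, with 1 point per library and a line at each group mean. MBF1c runs from 0.528 to 7853 CPM, while each MBF1b gene stays within 7.04 to 104.9 CPM.

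In total RNA, MBF1c went from a mean of 0.623 ± 0.128 to 819 ± 33.6 CPM (mean ± SD, n = 3). It rose by a log2 fold change of 10.34 ± 0.28 (SE; adjusted p = 1.8e-13), a fold of 1300, with a 95% confidence interval of 9.74 to 10.95 on the log2 scale. In polysome RNA it went from 3.74 ± 1.01 to 6659 ± 1040 CPM and rose by 10.78 ± 0.27 (adjusted p = 6.6e-14), with an interval of 10.20 to 11.36. These changes ranked 22 and 25 from the highest among the 34325 genes tested. The authors' deposited table gives log2 ratios of 10.50 and 10.84 for the same comparisons. The low mock counts limit the precision of the fold, as they set the denominator.

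After heat, MBF1c transcripts made up 0.102 ± 0.00265% of all counts in heat total RNA and 0.420 ± 0.0214% in heat polysome RNA (n = 3 each). In mock total and mock polysome RNA the shares were 8.9e-05 ± 2.0e-05% and 0.000336 ± 0.000115%. Within the family, MBF1c gave 0.295 ± 0.0628% of the MBF1 reads in mock total RNA and 80.9 ± 0.536% in heat total RNA. In polysome RNA it gave 1.45 ± 0.333% in mock and 95.3 ± 0.600% in heat. These shares are of reads, not corrected for transcript length, and do not depend on the scaling between libraries. The family's reads came almost wholly from MBF1b genes at 23 °C and mostly from MBF1c at 37 °C.

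In total RNA, the MBF1b genes had log2 fold changes between -0.42 and -0.02. The authors' deposited ratios for them ran from -0.28 to 0.11. They were positive for Niben101Ctg15295g00003.1 (0.11), Niben101Scf00212g01015.1 (0.11) and Niben101Scf08007g01016.1 (0.04) and negative for the others. Of all 7 MBF1 genes, 1 (MBF1c) rose and 1 fell, where 54.1% of all genes tested passed (25.7% rose and 28.3% fell). The gene that fell was Niben101Scf04236g00019.1, with 19.9, 24.7 and 26.9 CPM in mock and 18.6, 17.3 and 17.4 CPM in heat. Every heat library was below every mock library. Its log2 fold change was -0.42 ± 0.16 (adjusted p = 0.039), with an interval of -0.77 to -0.08. The call held in 7 of 19 alternatives: it ended when mock total 6 and 7 were both left out (-0.13, adjusted p = 0.69), with RLE size factors (-0.35, adjusted p = 0.08), with DESeq2 and with no filter, and without mock total 6 or 7, any heat total library, mock polysome 4 or heat polysome 6 or 7 (-0.43 to -0.32, adjusted p = 0.056 to 0.15). In such bulk leaf RNA, fewer cells of a type and less RNA per cell cannot be told apart.

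The other 5 MBF1b genes did not pass in total RNA. Niben101Scf00212g01015.1 had 66.5, 64.9 and 60.9 CPM in mock and 66.4, 64.8 and 58.0 CPM in heat. Niben101Scf08007g01016.1 had 66.4, 67.2 and 62.9 CPM in mock and 63.7, 61.1 and 58.2 CPM in heat. Both overlapped between treatments, with log2 fold changes of -0.02 ± 0.14 and -0.10 ± 0.13 (adjusted p = 0.9 and 0.54) and 95% intervals of -0.32 to 0.27 and -0.39 to 0.18. Niben101Scf00640g00014.1 had 24.9, 25.3 and 23.9 CPM in mock and 22.7, 20.3 and 20.0 CPM in heat. Niben101Scf02049g01002.1, the least counted MBF1b gene, had 9.71, 10.6 and 10.6 CPM in mock and 7.04, 9.19 and 8.10 CPM in heat. These 2 genes were lower in every heat library, yet their changes of -0.23 ± 0.15 and -0.34 ± 0.16 (adjusted p = 0.21 and 0.085) missed the threshold, with intervals of -0.55 to 0.09 and -0.69 to 0.00. With Niben101Scf04236g00019.1, the libraries of 3 MBF1 genes lay lower without overlap and those of MBF1c higher, as did 34.3% and 32.2% of all genes. Niben101Ctg15295g00003.1 had 18.3, 23.8 and 24.7 CPM in mock and 20.4, 23.3 and 21.6 CPM in heat, which overlap (log2 fold change -0.03 ± 0.15, adjusted p = 0.87, interval -0.35 to 0.29). The highest upper bound among the 6 MBF1b genes was 0.29, against a lower bound of 9.74 for MBF1c.

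In polysome RNA, 3 MBF1b genes rose besides MBF1c. That makes 4 of 7 MBF1 genes that rose and 0 that fell, where 56% of all genes passed (28.1% rose and 28% fell). DESeq2 and limma-voom also called 4, and by edgeR 0 were lower at an unadjusted p under 0.05. Niben101Scf00212g01015.1 had 55.2, 70.5 and 57.9 CPM in mock and 104.9, 89.2 and 86.9 CPM in heat. Niben101Scf08007g01016.1 had 51.7, 68.3 and 54.2 CPM in mock and 87.5, 85.3 and 79.8 CPM in heat. In both, every heat library was above every mock library, and mock library 3 was the highest of its group. Their log2 fold changes were 0.61 ± 0.14 and 0.54 ± 0.14 (adjusted p = 0.0015 and 0.0033). Before scaling between libraries, Niben101Scf00212g01015.1 went from 0.00541 ± 0.00091% to 0.00593 ± 4.2e-05% of all counts. Niben101Scf08007g01016.1 went from 0.00514 ± 0.00096% to 0.00536 ± 0.00041%. The size of these rises depends on the scaling factors, 0.791 to 0.963 in mock and 0.562 to 0.684 in heat polysome libraries.

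The third, Niben101Ctg15295g00003.1, had 45.7, 52.6 and 39.4 CPM in mock polysomes and 62.1, 59.9 and 60.4 CPM in heat polysomes. Its heat libraries also lay above all mock libraries, so 4 MBF1 genes were higher without overlap, as were 29.2% of all genes, and 0 lower, as were 28.6%. Its rise of 0.40 ± 0.15 (adjusted p = 0.03) no longer passed without mock polysome library 4 (0.32, adjusted p = 0.11), without heat polysome library 5, 6 or 7 (0.40 to 0.42, adjusted p = 0.05 to 0.055) or in a fit of polysome libraries alone (0.40, adjusted p = 0.079). Before scaling, the share of Niben101Ctg15295g00003.1 in all counts went from 0.00409 ± 0.00087% to 0.00387 ± 0.00034%, so its rise was seen only after scaling. Niben101Scf02049g01002.1 had 16.6, 18.3 and 20.9 CPM in mock and 25.6, 19.3 and 24.4 CPM in heat. Its libraries overlapped, with a change of 0.31 ± 0.16 (adjusted p = 0.1) and an interval of -0.02 to 0.65.

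The remaining MBF1b genes gave no call in polysomes. Niben101Scf00640g00014.1 had 34.4, 39.0 and 28.3 CPM in mock and 28.9, 37.7 and 37.5 CPM in heat, a change of 0.03 ± 0.15 (adjusted p = 0.88, interval -0.29 to 0.35). Niben101Scf04236g00019.1 had 37.0, 33.5 and 32.3 CPM in mock and 23.5, 34.5 and 34.2 CPM in heat, a change of -0.16 ± 0.16 (adjusted p = 0.44, interval -0.50 to 0.19). In both genes the lowest heat value came from library 5, and the treatments overlapped.

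**Figure D2:**
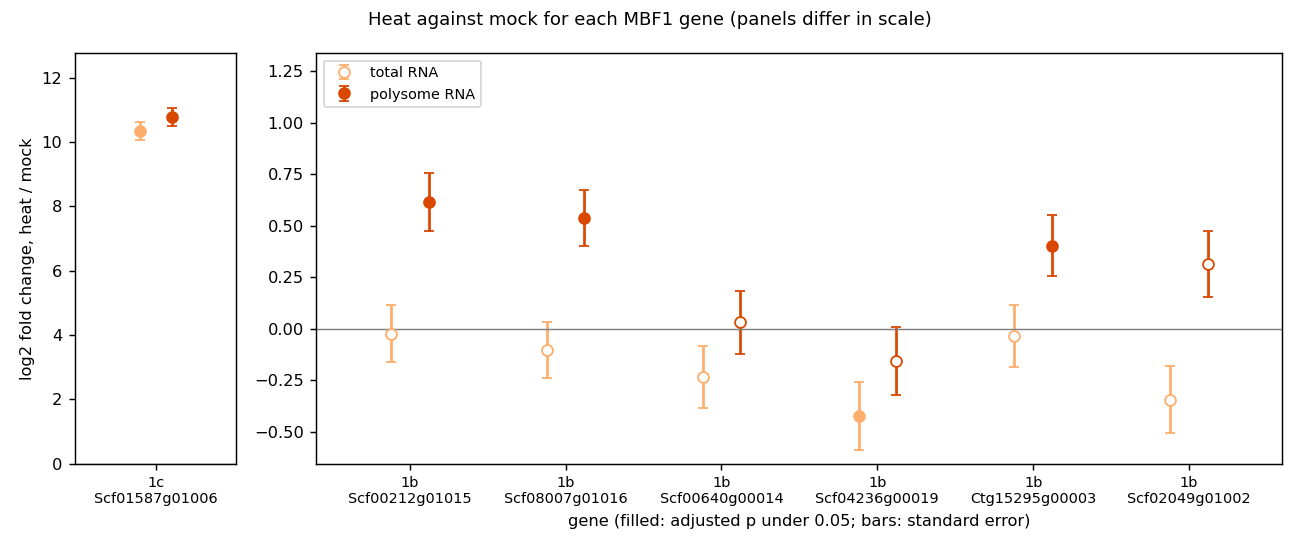
Log2 fold change of heat against mock for each MBF1 gene in total RNA (light) and polysome RNA (dark), with standard errors and filled points where adjusted p is under 0.05. MBF1c sits above 10 in both fractions, on its own scale, and the 6 MBF1b genes lie between -0.42 and 0.61.

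Polysome RNA was then set against total RNA within each treatment, which measures how far a transcript is enriched in the ribosome-bound fraction. MBF1c's log2 ratio of polysome to total RNA was 2.59 ± 0.28 in mock (adjusted p = 1.9e-06) and 3.02 ± 0.19 in heat (adjusted p = 1.4e-08), folds of 6.02 and 8.13. These ratios ranked 221 and 42 from the highest of 34325 genes. In mock, 5 of 7 MBF1 genes were higher in polysomes and 0 lower, where 54.2% of all genes passed (27% higher and 27.2% lower). The libraries of these 5 did not overlap and those of the other MBF1b genes did, where 27.1% of all genes lay higher without overlap and 28.8% lower. In heat all 7 were higher, where 59.1% of all genes passed (30.8% higher and 28.4% lower). All 7 also lay higher without overlap in heat, where 35.7% of all genes did so and 33.3% lay lower. Before scaling, Niben101Scf00212g01015.1 and Niben101Scf08007g01016.1 gave 0.00783% and 0.00758% of all counts in heat total but 0.00593% and 0.00536% in heat polysome RNA. Niben101Scf00640g00014.1 and Niben101Scf04236g00019.1 gave 0.00261% and 0.00221% against 0.00223% and 0.00199%. The calls of these genes thus depend on scaling (factors 1.22 to 1.26 in heat total, 0.562 to 0.684 in heat polysome RNA). The other MBF1 genes were higher before scaling too.

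The MBF1b genes are given in pairs of similar ratio, noticed after the values were seen. Niben101Ctg15295g00003.1 and Niben101Scf02049g01002.1 had log2 polysome ratios of 1.04 ± 0.15 and 0.85 ± 0.16 in mock (adjusted p = 3.2e-05 and 0.00036) and 1.48 ± 0.15 and 1.51 ± 0.16 in heat (adjusted p = 7.5e-07 and 1.3e-06). Niben101Scf00640g00014.1 and Niben101Scf04236g00019.1 had 0.46 ± 0.15 and 0.52 ± 0.16 in mock (adjusted p = 0.017 and 0.013) and 0.72 ± 0.15 and 0.79 ± 0.17 in heat (adjusted p = 0.00072 and 0.00069). Niben101Scf00212g01015.1 and Niben101Scf08007g01016.1 had -0.07 ± 0.14 and -0.17 ± 0.13 in mock, which did not pass (adjusted p = 0.71 and 0.29), and 0.57 ± 0.14 and 0.47 ± 0.14 in heat (adjusted p = 0.0023 and 0.0076). In mock, the call of Niben101Scf00640g00014.1 ended with mock total 6 and 7 left out (0.44, adjusted p = 0.15), without mock polysome library 3 (0.35, adjusted p = 0.069) and in a fit of the mock libraries alone (0.45, adjusted p = 0.05). That of Niben101Scf04236g00019.1 ended without mock total library 5 (0.41, adjusted p = 0.064). Before scaling, both genes had lower shares of all counts in mock polysome than in mock total RNA (0.00302% against 0.00352%, and 0.00304% against 0.00340%).

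**Figure D3:**
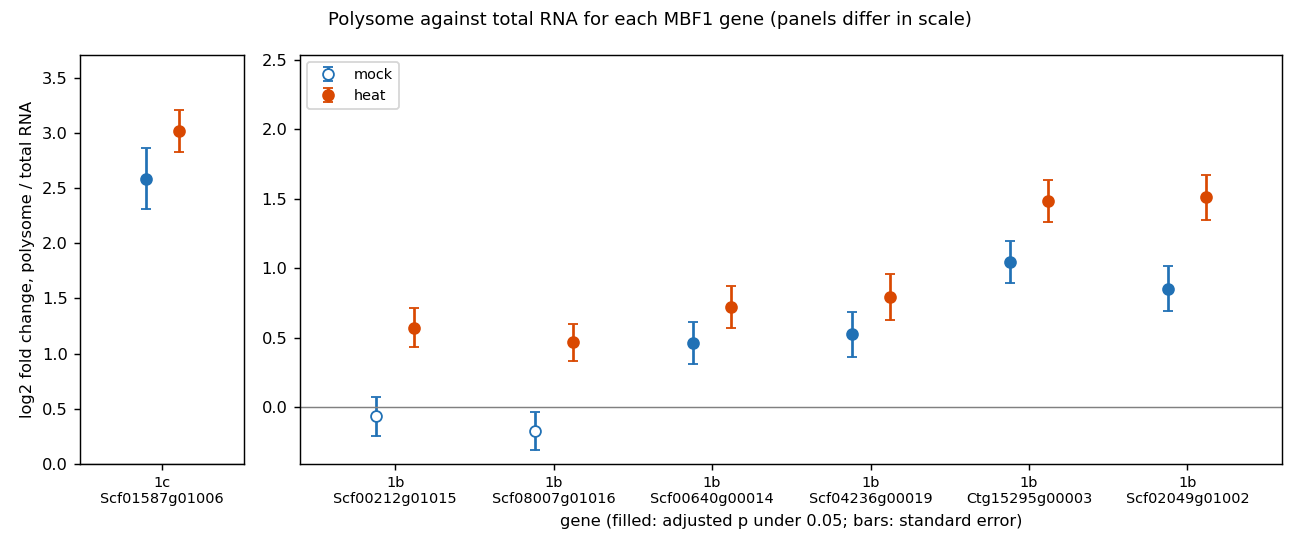
Log2 fold change of polysome against total RNA for each MBF1 gene in mock (blue) and heat (orange), with standard errors and filled points where adjusted p is under 0.05. MBF1c has the highest ratio in both treatments, and in each gene the heat value lies above the mock value.

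Whether heat changed this enrichment was tested as the difference between the heat effects in polysome and total RNA, the heat effect on translation efficiency. This contrast sets the libraries numbered 5 to 7 against those numbered 2 to 4. Any other shift between these numbered sets cannot be told apart from it. For MBF1c the difference was 0.43 ± 0.36 (adjusted p = 0.45), with an interval of -0.33 to 1.2. A change of efficiency was not detectable at this depth and spread. For Niben101Scf00212g01015.1 and Niben101Scf08007g01016.1 it was 0.64 ± 0.20 and 0.64 ± 0.19 (adjusted p = 0.035 and 0.03), so efficiency rose in 2 of 7 MBF1 genes, where 18.6% of all genes passed (10.2% rose and 8.42% fell). Before scaling, Niben101Scf00212g01015.1 went from 0.00913% to 0.00783% of all counts in total RNA and from 0.00541% to 0.00593% in polysome RNA. Niben101Scf08007g01016.1 went from 0.00933% to 0.00758% and from 0.00514% to 0.00536%. The size of both differences thus depends on the scaling factors. Each call held in 7 of 18 alternatives. With mock total 6 and 7 left out the differences were 0.68 and 0.65 (adjusted p = 0.12 and 0.13), and with no filter on low counts 0.59 and 0.59 (adjusted p = 0.061 and 0.054). Both calls also ended without heat polysome library 5 or 6, any heat total library, mock polysome library 2 or 4, or mock total library 5 or 6 (0.52 to 0.66, adjusted p = 0.059 to 0.11). Niben101Scf02049g01002.1 had a difference of 0.66 ± 0.23 that missed the threshold (adjusted p = 0.055). Averaged over both fractions, the heat effect called 3 of 7 MBF1 genes, where 65.7% of all genes passed (31.3% rose and 34.4% fell): MBF1c and Niben101Scf00212g01015.1 (0.29 ± 0.10, adjusted p = 0.015) rose and Niben101Scf04236g00019.1 (-0.29 ± 0.12, adjusted p = 0.038) fell. With mock total 6 and 7 left out, neither MBF1b call held (0.30, adjusted p = 0.067, and -0.13, adjusted p = 0.44). The fall of Niben101Scf04236g00019.1 held in 6 of 19 alternatives. It also ended with RLE size factors, DESeq2 or no filter (-0.25 to -0.23, adjusted p = 0.072 to 0.093), and without heat polysome 5 (-0.19, adjusted p = 0.11), any heat total library, any mock polysome library, or mock total 6 or 7 (adjusted p = 0.052 to 0.099). For efficiency, the other 3 MBF1b genes had 0.26 to 0.44 (adjusted p = 0.17 to 0.47).

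How alike the MBF1 genes were was measured as the root mean square difference of their centred log2 CPM over 12 libraries, a description that includes the size of the change. The smallest difference was 0.081, between Niben101Scf00212g01015.1 and Niben101Scf08007g01016.1. Niben101Scf00640g00014.1 and Niben101Scf04236g00019.1 differed by 0.174, and Niben101Ctg15295g00003.1 and Niben101Scf02049g01002.1 by 0.218. MBF1b genes of different pairs differed by 0.317 to 0.578, and MBF1c stood 5.16 to 5.45 from each of them. The pairs were noticed in these same libraries, so smaller differences within pairs are no separate evidence for the pairing. Counting may divide reads among copies of nearly the same sequence, so values of single genes within a pair are uncertain. Sequences were not compared, and the pairs rest on expression values alone.

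The genes most like MBF1c over the 12 libraries were small heat shock proteins, chaperones that bind unfolding proteins. All 3 nearest genes, of 16157 well-counted annotated genes compared, were annotated as class I cytosolic members: Niben101Scf10384g00017.1, Niben101Ctg10208g00001.1 and Niben101Scf10384g00016.1, with root mean square differences of 0.472, 0.559 and 0.741. Their levels in heat total RNA were 1278 ± 115, 327 ± 21.7 and 2874 ± 186 CPM, against 1.22 ± 0.347, 0.188 ± 0.0694 and 1.94 ± 0.605 CPM in mock total RNA. Niben101Scf10384g00017.1 rose by 10.02 ± 0.31 in total RNA and 10.95 ± 0.32 in polysome RNA (adjusted p = 6.5e-13 and 2.5e-13). Its efficiency difference of 0.92 ± 0.36 did not pass (adjusted p = 0.089). For Niben101Scf10384g00016.1 efficiency rose by 1.29 ± 0.39 (adjusted p = 0.032); its difference from MBF1c was not tested.

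**Figure D4:**
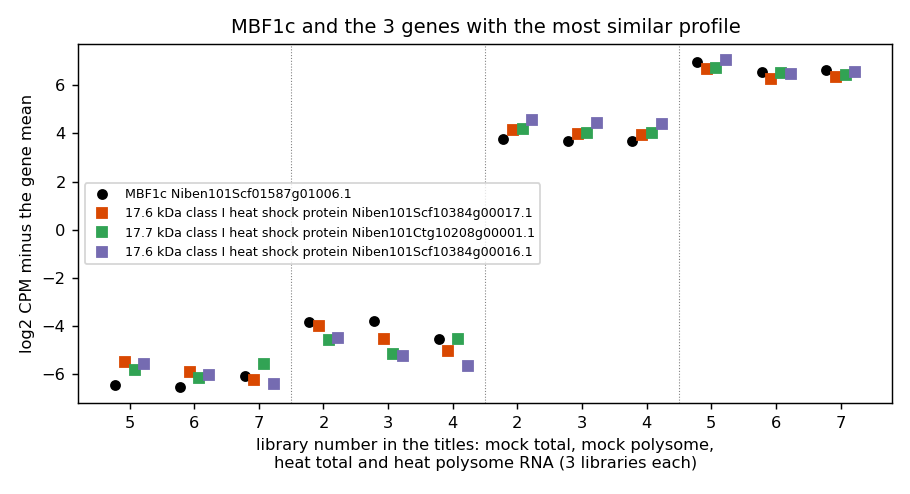
Log2 CPM minus the gene's own mean in each of 12 libraries for MBF1c (black circles) and the 3 genes of most similar profile (coloured squares), all annotated as class I small heat shock proteins. In all 4 genes every heat library lies above every mock library.

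Nearest genes were also taken for each MBF1b gene. For Niben101Scf00212g01015.1 and Niben101Scf08007g01016.1 the nearest was the same gene, a proteasome beta subunit (Niben101Scf02487g00001.1, differences of 0.0749 and 0.0856), part of the protease that degrades ubiquitin-tagged proteins. Both also had a rhodanese family gene (Niben101Scf05468g02015.1, 0.105 and 0.108) among the nearest 3. The others were the ribosome biogenesis factor NSA2 (Niben101Scf07323g02009.1, 0.105) for the former and a ubiquitin-conjugating enzyme (Niben101Scf12932g00011.1, 0.103) for the latter. The proteasome gene had log2 fold changes of -0.13 ± 0.14 in total RNA (adjusted p = 0.46) and 0.66 ± 0.14 in polysome RNA (adjusted p = 0.00095). Its translation efficiency rose by 0.79 ± 0.20 (adjusted p = 0.013).

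The nearest genes of Niben101Scf00640g00014.1 were a translin family gene (Niben101Scf05620g03016.1), a receptor-like kinase (Niben101Scf03396g00005.1) and a tetratricopeptide repeat protein (Niben101Scf02819g00003.1), at 0.109 to 0.14. Those of Niben101Scf04236g00019.1 were an RNA polymerase subunit (Niben101Scf05643g01011.1), a GDSL esterase/lipase (Niben101Scf08975g02016.1) and an erlin-2 homolog (Niben101Scf00635g09012.1), at 0.144 to 0.161. Nearest to Niben101Ctg15295g00003.1 were stress enhanced protein 1 (Niben101Scf07563g00009.1), a light-harvesting-like protein, an inorganic pyrophosphatase (Niben101Scf00606g02018.1) and a glutaredoxin family gene (Niben101Scf00597g06003.1), at 0.145 to 0.152. Nearest to Niben101Scf02049g01002.1 were an ankyrin repeat gene (Niben101Scf06626g00001.1), the magnesium chelatase subunit ChlI of chlorophyll synthesis (Niben101Scf16898g00001.1) and a gene whose text names only rice (Niben101Scf02831g03022.1), at 0.125 to 0.147.

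Genes placed around MBF1c by work in Arabidopsis were then counted, beside the 25.7% of all genes that rose and 28.3% that fell in total RNA, and the 28.1% and 28% in polysome RNA. Heat stress transcription factors include the class A1 activators that act upstream of MBF1c there and the class B factors among the transcripts it controls. Of 41 tested, 20 rose and 5 fell in total RNA, with a median log2 fold change of 0.57 beside -0.08 for all genes, and 22 rose and 4 fell in polysome RNA (median 0.77, beside -0.06). With mock total 6 and 7 left out, 17 rose and 4 fell in total RNA. The number that fell was 3 in total RNA without heat total library 2, and 2 in polysome RNA without heat polysome library 6. The one with the most counts, an HSFA2 gene (Niben101Scf01777g02001.1), went from 5.81 ± 0.263 to 372 ± 3.66 CPM in total RNA and rose by 6.0 ± 0.23 (adjusted p = 7.4e-12). Niben101Scf03923g03003.1, an A-6b type factor, rose by 6.37 ± 0.19 (adjusted p = 4.7e-13), and another of that type, Niben101Scf01609g00003.1, fell by 3.43 ± 0.45 (adjusted p = 9.1e-06). The latter went from 1.17 ± 0.165 to 0.0986 ± 0.0632 CPM in total RNA, close to the lowest count of 1 in each library. Its change in polysome RNA, -1.31 ± 0.59, did not pass (adjusted p = 0.12).

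Trehalose genes are of interest because trehalose-phosphate synthase 5 binds MBF1c in Arabidopsis. Of 26 tested, 13 rose and 6 fell in total RNA (median 0.54), and 14 rose and 9 fell in polysome RNA (median 0.78), where 25.7% and 28.3% of all genes rose and fell in total RNA and 28.1% and 28% in polysome RNA. With mock total 6 and 7 left out, 12 rose and 5 fell in total RNA. The one with the most counts, a trehalose phosphate synthase (Niben101Scf06275g00008.1), went from 5.98 ± 2.65 to 112 ± 0.765 CPM and rose by 4.22 ± 0.33 (adjusted p = 2.7e-08). Another synthase (Niben101Scf11123g00021.1) rose by 3.81 ± 0.28 (adjusted p = 1.2e-08). A trehalose-phosphate phosphatase A (Niben101Scf03853g03012.1), which acts on the synthase's product, fell by 1.46 ± 0.26 (adjusted p = 0.00017).

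Ethylene perception and signalling genes numbered 20 tested. In total RNA 13 rose and 1 fell, with a median of 1.52, and in polysome RNA 9 rose and 2 fell, with a median of 0.74. Over all genes, 25.7% rose and 28.3% fell in total RNA, and 28.1% and 28% in polysome RNA. The number that fell in polysome RNA was 1 without any single heat polysome library, without mock polysome library 3 or 4, and in a fit of polysome libraries alone. The EIN3-binding F-box genes, which target the ethylene regulator EIN3 for degradation, held the member with the most counts (Niben101Scf14688g00005.1, from 61.9 ± 12.6 to 243 ± 6.64 CPM) and the rise with the smallest p (Niben101Scf16663g00002.1). They rose by 1.97 ± 0.16 and 3.49 ± 0.16 in total RNA (adjusted p = 4.3e-08 and 5.5e-11), while their translation efficiency fell by 0.78 ± 0.22 and 0.79 ± 0.21 (adjusted p = 0.021 and 0.016). The 1 gene that fell in total RNA was an EIN3 homolog (Niben101Scf00304g02014.1, -0.56 ± 0.14, adjusted p = 0.0032). In total RNA 2 fell with no filter on low counts, and with mock total 6 and 7 left out 11 genes of the list rose and 0 fell. The DREB list matched a single gene, annotated as DREB3 (Niben101Scf04158g00002.1), which fell by 3.75 ± 0.59 (adjusted p = 5.8e-05). It went from 2.57 ± 1.19 to 0.182 ± 0.211 CPM, close to the lowest count of 1 that the table holds.

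Genes of the complex that MBF1 bridges to were counted in the same way. Of 48 tested genes of the TATA-binding protein and the TFIID complex around it, 11 rose and 8 fell in total RNA (median 0.27), and 5 rose and 21 fell in polysome RNA (median -0.40), where 25.7% and 28.3% of all genes rose and fell in total RNA and 28.1% and 28% in polysome RNA. The number that rose in polysome RNA was 2 in a fit of polysome libraries alone. In total RNA these counts were 4 and 5 without mock total libraries 6 and 7. Without those libraries fewer of all genes passed as well, so 25.7% and 28.3% are not the shares to set beside 4 and 5. Efficiency fell in 13 and rose in 3 of the 48 tested genes, where 8.42% of all genes fell and 10.2% rose. In the other lists it fell in 0 and rose in 3 of 41 heat stress factors, and fell in 2 and rose in 1 of 26 trehalose genes. It fell in 3 and rose in 0 of 20 ethylene genes, fell in 3 and rose in 8 of 48 bZIP-annotated genes, and was not called for DREB3. The one with the most counts, TFIID subunit 10 (Niben101Scf01721g10013.1), had a log2 fold change of 0.06 ± 0.14 in total RNA (adjusted p = 0.76). Subunit 7 (Niben101Scf02164g05013.1) rose by 2.0 ± 0.19 (adjusted p = 3.2e-07), and a subunit 2 gene (Niben101Scf21647g00003.1) fell by 2.15 ± 0.24 (adjusted p = 1.7e-06).

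Of 48 bZIP-annotated genes tested, 19 rose and 10 fell in total RNA (median 0.31), and 20 rose and 10 fell in polysome RNA (median 0.35), where 25.7% and 28.3% of all genes rose and fell in total RNA and 28.1% and 28% in polysome RNA. Without mock total libraries 6 and 7, 17 rose and 6 fell in total RNA. A bZIP family gene (Niben101Scf01696g06033.1) rose by 3.68 ± 0.20 (adjusted p = 3.4e-10), and another (Niben101Scf07883g02005.1) fell by 5.01 ± 0.47 (adjusted p = 2.2e-07). The latter went from 9.39 ± 3.56 to 0.284 ± 0.0835 CPM in total RNA. The gene with the most counts matched by text (Niben101Scf08573g01010.1) is a leucine zipper and W2 domain protein, a translation regulator in human cells and no bZIP factor, with a log2 fold change of 0.22 ± 0.15 in total RNA (adjusted p = 0.23).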

How the data were processed

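Leaf total RNA and polysome RNA were sequenced in 12 libraries, grouped by treatment and fraction from their titles. The deposited counts per gene are raw whole numbers, per the file headers, with a lowest value of 1 in every library. Whether 1 was added to every count is not stated. With 1 subtracted from every count, the log2 fold change of MBF1c in total RNA was 10.50. The authors' table also gives log2 fold changes between groups, per the file headers. The submitters' processing notes list HTSeq 0.11.0, HISAT2, cutadapt and DESeq and state no role for any. No genome build is named in what was used here, so genes carry no coordinates. A further 2 lines of the table were not analysed here.

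Counts were tested in R 4.3.3 by the quasi-likelihood test of edgeR 4.0.16. Genes passed filterByExpr at 10 counts, TMM scaled the libraries, and the model held the means of the 4 groups. P-values were adjusted by Benjamini-Hochberg over all 34325 genes tested, with a threshold of 0.05. The 6 comparisons were heat against mock in each fraction, their difference (translation efficiency), polysome against total RNA in each treatment, and the mean heat effect. CPM use TMM library sizes. Standard errors were derived from F as the absolute log2 change over its root, and intervals are at 95%. The fit was tested on simulated data. Likeness used log2 CPM with a prior count of 2, over annotated genes with a mean above the median, and took the 3 nearest genes.

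All members are named. From each of 6 pathway lists, matched on annotation text, the member with the highest mean CPM and those with the smallest p each way in total RNA are named. Members and lists were chosen with earlier results of these data known, and described by counts without set tests. Alternatives were RLE size factors, no filter, DESeq2 1.42.0, limma-voom (limma 3.58.1), the compared groups alone, 1 subtracted from each count, each library left out, mock total libraries 6 and 7 left out together (which leaves 1 library, assumed to vary like the other groups) and title numbers as a blocking factor. No pair of libraries within a group agreed within sampling noise, with a chi-square per gene of 1.66 to 31.2. The depth gave 9 to 63864 reads for MBF1c and 123 to 1160 for each MBF1b gene per library. The alternatives for pathway-list counts and all-gene counts were added after seeing the data.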

Additional observations from a re-analysis of the deposited data

Results flagged for a closer look

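The heat effect differed between polysome and total RNA for 2 MBF1b genes, by the test of the difference itself. That test also sets libraries numbered 5 to 7 against those numbered 2 to 4, and the 2 cannot be told apart. The difference was 0.64 ± 0.20 on the log2 scale for Niben101Scf00212g01015.1 (adjusted p = 0.035) and 0.64 ± 0.19 for Niben101Scf08007g01016.1 (adjusted p = 0.03). For the former the difference was positive in all 18 alternatives, 0.53 to 0.74, and passed in 7 of them (adjusted p from 0.017 to 0.12). For the latter it was 0.52 to 0.76 in all 18, and also passed in 7 (adjusted p from 0.01 to 0.13). The size of both differences depends on the scaling between libraries. The 2 genes have the most similar profiles of the family. If they are near-identical copies, reads could be split between them, but their sequences were not compared.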

How the results depend on the processing

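The calls of MBF1c in both heat comparisons and both polysome comparisons held in all 19 alternatives, with log2 fold changes of 10.25 to 10.53 (heat, total RNA), 10.60 to 10.91 (heat, polysome RNA), 2.47 to 2.78 (polysome, mock) and 2.88 to 3.09 (polysome, heat). Of 42 member values, recomputed 791 times in all, 57 recomputations lost a call, 10 gained one and 35 changed sign, none of these on a value past the threshold. The number of MBF1 genes called in total RNA was 2, and 1 with RLE size factors, no filter, DESeq2 or without mock total libraries 6 and 7, and 1 to 2 with each library left out, the lost call being that of Niben101Scf04236g00019.1. For efficiency it was 2, and 0 with no filter or without libraries 6 and 7, and 0 to 2 with each library left out. Over all genes, 6393 passed for efficiency, 2434 without libraries 6 and 7, and 4150 to 7498 with each library left out. Sign changes were as follows. In total RNA, Niben101Ctg15295g00003.1 had 0.040 with RLE size factors, 0.048 with no filter, 0.28 without libraries 6 and 7, 0.039 with DESeq2 and -0.13 to 0.055 with each library left out. Niben101Scf00212g01015.1 had 0.047 with RLE, 0.055 with no filter, 0.047 with DESeq2 and -0.051 to 0.060 with each left out. In polysome RNA, Niben101Scf04236g00019.1 had -0.24 to 0.018 and Niben101Scf00640g00014.1 -0.069 to 0.16 with each left out. For polysome against total RNA in mock, Niben101Scf00212g01015.1 had -0.18 to 0.0053 with each left out. For the mean heat effect, Niben101Scf02049g01002.1 had -0.01, and 0.030 with RLE, 0.038 with no filter, 0.054 without libraries 6 and 7, 0.030 with DESeq2 and -0.043 to 0.061 with each left out. The causes were not tested.

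The mean heat effect over both fractions called 3 MBF1 genes, where 65.7% of all genes were called. Groups compared within a fraction or treatment share no title numbers, and the efficiency contrast cannot be estimated beside a block, so the replicate block could be fitted for the mean heat effect alone. There MBF1c had 10.56, and 10.57 with the block, and 3 MBF1 genes were called with it. The count was 2 without mock total libraries 6 and 7, where both MBF1b calls were lost and Niben101Ctg15295g00003.1 passed (0.35, adjusted p = 0.03), and 2 to 4 with each library left out. Around their group means, same-numbered libraries did not deviate together (correlations of -0.0588 to -0.00316). Taking out the group means also takes out any shift between numbers 2 to 4 and 5 to 7. These correlations therefore cannot show whether there was such a shift, which cannot be told apart from the comparisons within a fraction or treatment. RLE size factors shifted the median change of all genes by 0.07 at most. This compares RLE with TMM alone and does not bound an error that both may share.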

Other observations

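Summed over the 6 MBF1b genes, transcript levels were 211 ± 5.38 CPM in mock total, 193 ± 8.24 CPM in heat total, 252 ± 26.4 CPM in mock polysome and 327 ± 4.78 CPM in heat polysome RNA (n = 3 each). Adding MBF1c brought the sums to 211 ± 5.35, 1012 ± 39.6, 256 ± 27.1 and 6987 ± 1044 CPM. Among MBF1b reads alone, which are free of MBF1c and of the scaling between libraries, Niben101Scf00212g01015.1 and Niben101Scf08007g01016.1 gave 24.3 ± 1.14% and 23.0 ± 1.38% in mock polysomes and 28.6 ± 2.56% and 25.7 ± 0.905% in heat polysomes. Niben101Scf00640g00014.1 and Niben101Scf04236g00019.1 gave 13.4 ± 1.13% and 13.7 ± 1.77% in mock polysomes and 10.6 ± 1.67% and 9.42 ± 2.04% in heat polysomes. Niben101Ctg15295g00003.1 gave 18.2 ± 1.12% and 18.6 ± 0.18%, respectively, and Niben101Scf02049g01002.1 7.45 ± 1.35% and 7.06 ± 0.980%. These shares are values without a test.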
